A study of Mus musculus with 36 samples.

Results

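The genes described here are a hand-listed set of 35 mouse genes of glycolysis and of the transcriptional response to low oxygen, measured in Bhas 42 cells exposed to silica particles or to the tumour promoter TPA. A probe was assigned to a gene when its RefSeq accession mapped to one of the listed symbols, and it was tested when 3 or more of the 4 arrays in some group read it well above background. All 35 genes had a probe and 34 were tested, among 32492 gene names tested in all. The exception was Slc2a3, which encodes a glucose transporter: each of its probes was well above background on 1 of 36 arrays. Every tested gene except Adm was well above background on all 4 arrays of every group. Adm passed only through Min-U-Sil 5 and its water control, with 4 and 3 of 4 arrays. The 34 genes are not the full list.

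Bhas 42 is a fibroblast line made from mouse BALB/c 3T3 cells by introducing the viral Ha-ras oncogene, which every group, controls included, therefore carries. Cells were seeded at 1460 cells/cm², treated on day 4 and collected on day 6, after 48 h, and RNA of each culture was read on a 1-colour Agilent array. The 9 groups had 4 arrays each, 36 in all, and the question was what the particles change in these cells. One set of water controls (2%) served NM-203, a synthetic amorphous silica, at 1, 2 and 5 µg/cm² as well as DE, diatomaceous earth, at 5 µg/cm². For Min-U-Sil 5, a crystalline silica given at 20 µg/cm², there was a separate water control (2%), and TPA (12-O-tetradecanoylphorbol-13-acetate) at 0.05 µg/ml had DMSO (0.1%). The particles were tested at different doses, so their values stand side by side and are not matched for dose. All groups are 1 cell line in culture. The submitters mention 4 independent experiments without saying which array belongs to which, so the p-values measure only the spread between these samples.

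Glycolysis splits glucose into pyruvate, which is either reduced to lactate and exported or passed to mitochondria. Several of its steps can be carried out by alternative isozymes, encoded by different genes and favoured in different tissues. When oxygen is low, the prolyl hydroxylases that mark the HIF-1α protein for destruction slow down, and HIF-1 then binds short DNA elements near many glycolytic genes and raises their transcription. HIF-1α is controlled mainly at the level of its protein, which arrays do not measure, and RAS and MYC signalling also act on glycolytic genes.

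The core of the element bound by HIF is short, and it was searched for in the RefSeq promoters (GRCm38.p6), 250 bases before to 50 after each start site, because the members that rose and those that fell could be compared there. The letters searched were ACGTG and GCGTG on both strands, with overlapping matches counted separately. A palindromic CACGTG, which is also an E-box, thus counts as 2. Of the 33 members with a promoter in the table, 30 (90.9%) held a core, against 46.7% of 27025 genes. The members were listed as genes of glycolysis and the low-oxygen response, so a higher share follows from how they were chosen. The 27025 genes also include genes not tested here. By promoter, 38 of 47 (80.9%) held one, against 43.8% of 32851. A core was present for 10 of the 11 genes that rose after NM-203 at 5 µg/cm², for 6 of 7 that fell and for 14 of 15 that passed the test in neither direction. In a window of only the 250 bases before the start, searched after the longer one, the member counts were the same and 41.5% of all genes held a core. A match is only a run of letters, and none was tested for binding. The risen and the fallen genes whose promoters held most cores in the longer window are shown, 3 of each, as the 250 bases before the start with cores in capitals. Those that rose were Ldha at chr7:46845554-46845803 (plus strand), Slc16a1 at chr3:104638414-104638663 (plus) and Pfkfb3 at chr2:11502091-11502340 (minus).
Ldha: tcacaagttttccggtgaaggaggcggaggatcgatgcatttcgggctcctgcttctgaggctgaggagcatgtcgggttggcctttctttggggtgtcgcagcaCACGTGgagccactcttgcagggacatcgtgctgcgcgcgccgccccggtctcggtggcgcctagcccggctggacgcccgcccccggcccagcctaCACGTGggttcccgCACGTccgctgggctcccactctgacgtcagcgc
Slc16a1: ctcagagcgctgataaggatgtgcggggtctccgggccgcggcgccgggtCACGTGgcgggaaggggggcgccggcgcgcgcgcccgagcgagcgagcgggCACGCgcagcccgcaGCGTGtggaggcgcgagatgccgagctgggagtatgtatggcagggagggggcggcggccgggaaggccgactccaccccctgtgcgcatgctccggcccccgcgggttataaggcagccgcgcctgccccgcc
Pfkfb3: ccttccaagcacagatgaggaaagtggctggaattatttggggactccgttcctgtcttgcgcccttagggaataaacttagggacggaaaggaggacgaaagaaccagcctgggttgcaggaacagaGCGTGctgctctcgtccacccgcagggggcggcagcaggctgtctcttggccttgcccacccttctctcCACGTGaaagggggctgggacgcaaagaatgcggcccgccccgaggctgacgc
Those that fell were Ankrd37 at chr8:45999851-46000100 (minus), Aldoc at chr11:78322823-78323072 (plus) and Pfkm at chr15:98092339-98092588 (plus).
Ankrd37: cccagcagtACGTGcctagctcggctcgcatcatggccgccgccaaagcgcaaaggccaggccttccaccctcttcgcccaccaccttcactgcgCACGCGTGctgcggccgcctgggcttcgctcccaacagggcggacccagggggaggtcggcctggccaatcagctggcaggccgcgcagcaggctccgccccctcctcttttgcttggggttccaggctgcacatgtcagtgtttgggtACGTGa
Aldoc: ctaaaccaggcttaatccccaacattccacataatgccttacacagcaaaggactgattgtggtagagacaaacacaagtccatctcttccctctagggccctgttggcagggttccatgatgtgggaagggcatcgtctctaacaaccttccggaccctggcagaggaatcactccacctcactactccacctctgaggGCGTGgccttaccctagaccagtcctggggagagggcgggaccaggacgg
Pfkm: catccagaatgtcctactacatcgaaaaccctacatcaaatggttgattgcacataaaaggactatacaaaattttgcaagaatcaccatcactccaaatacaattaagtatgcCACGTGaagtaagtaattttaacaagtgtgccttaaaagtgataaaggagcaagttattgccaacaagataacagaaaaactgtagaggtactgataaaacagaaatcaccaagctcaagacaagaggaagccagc
The stretches shown held 5, 4 and 3 cores for the genes that rose and 4, 1 and 2 for those that fell, in the order given.

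On each array 31192 to 43119 probes (55.1% to 76.2%) exceeded background clearly, and replicate arrays correlated with r from 0.953 to 0.993 across genes. Precision is limited by having 4 arrays per group. The arrays lay on 5 slides scanned on 2 days. The 4 water arrays of NM-203 and DE were scanned on the first day, and the 4 arrays of the 2 µg/cm² dose of NM-203 on the second, with no slide in common. The 4 water arrays of Min-U-Sil 5 were scanned on the second day, on the same slides as that dose. Replicate 2 of that dose stood apart, with 380 outlier spots against 74 on the cleanest array. Replicate 1 of NM-203 at 5 µg/cm² and replicate 4 at 1 µg/cm² were also scanned on the second day, on slide 5. That slide held no array of their water control. All 10 fibroblast markers listed were well above background on all 36 arrays. Markers of other cell types were mixed. Of the macrophage list, Csf1r, Cd68, Lyz2, Aif1, Cd14 and Itgam (6 of 8) were also above background on all 36 arrays, Adgre1 was on 7 and Ptprc, the pan-leukocyte marker, on 0. Of the epithelial list, Krt8 and Krt14 (2 of 5) were above it on all arrays, Krt18 on 10, Cdh1 on 1 and Epcam on 0, and of the endothelial list Pecam1 (1 of 4) on all, Cdh5 on 22, Kdr on 9 and Tek on 0. Summed fibroblast marker intensity, each relative to the array's 75th percentile, was 625 to 837 after NM-203 at 5 µg/cm² against 1000 to 1120 in water, and 782 to 864 after Min-U-Sil 5 against 1010 to 1420 in its water. In each of these groups 7 of the 10 markers fell, where 19.1% and 13.9% of all gene names were lower. The macrophage sum was 16 to 21.4 after NM-203 at 5 µg/cm² against 19.8 to 28.5 in water, and 13.3 to 16.9 after Min-U-Sil 5 against 14.4 to 21.4. After NM-203 at 2 µg/cm² it was 10.7 to 17.8, below its first-day water arrays but overlapping the second-day ones of Min-U-Sil 5. The epithelial and endothelial sums were at most 0.617 and 0.483 in any group. The part of these shifts in the results was not tested. In such bulk RNA, fewer cells of a type and less RNA per cell cannot be told apart.

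After NM-203 at 5 µg/cm², 19 of the 34 genes passed the test (limma, Benjamini-Hochberg adjusted p under 0.05 over all gene names), 11 higher and 8 lower, where 33.1% of all gene names passed. Most enzymes of lower glycolysis rose, whereas the isozymes Aldoc, Eno2, Ldhb and Pfkm fell by up to 2.61-fold. Min-U-Sil 5 gave 18 called genes, 9 higher and 9 lower, against 25.6% of all gene names. NM-203 at 2 µg/cm² gave 13, 10 higher and 3 lower (25.0% of all), and TPA 8, 5 higher and 3 lower (11.7%). DE gave 2, both lower (1.01%), and NM-203 at 1 µg/cm² gave 0 (limma; 0.0862% of all, and 1864 gene names at an unadjusted p under 0.05). The median log2 change of the 34 genes was 0.13 after NM-203 at 5 µg/cm² against 0.01 over all gene names, 0.04 against 0.04 after Min-U-Sil 5, 0.19 against 0.11 at 2 µg/cm² and 0.01 against -0.04 after TPA. Calls ran in both directions. Scaling shifts all changes by a constant: with the percentile taken over probes above background on all arrays, the median of all gene names was -0.10 after NM-203 at 5 µg/cm² and 0.00 at 2 µg/cm², and the members split 11 to 9 and 7 to 4. With normexp and quantile normalization TPA split 7 to 2. Of the 34 genes, 10 passed in none of the 6 comparisons, 11 in 2, and Ankrd37 alone in 5. The same counts were not worked out over all gene names, and the NM-203 and DE comparisons share their water arrays. These counts therefore do not set the 34 genes apart.

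**Figure D1:**
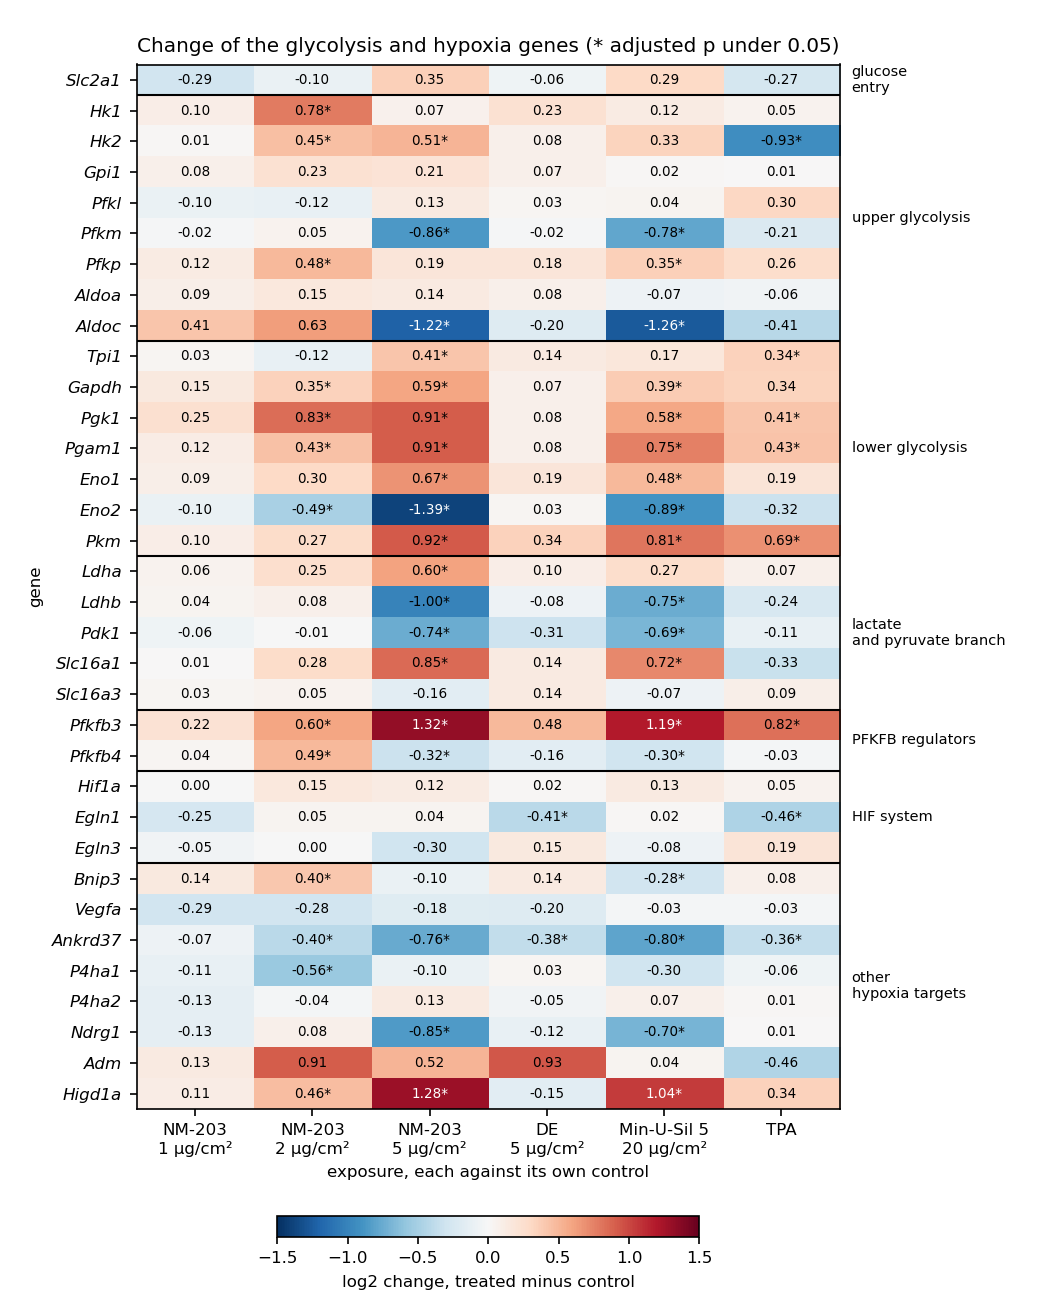
Log2 change of the 34 tested genes (rows, grouped by role) in 6 exposures against their own controls (columns), 4 arrays per group; colour and number give the change, and an asterisk marks an adjusted p under 0.05 (limma). The columns of NM-203 at 5 µg/cm² and Min-U-Sil 5 carry 19 and 18 asterisks, and those of DE and NM-203 at 1 µg/cm² carry 2 and 0.

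Glucose entry was represented by Slc2a1, the glucose transporter GLUT1. Its level was 1.96 ± 0.09 in water (SD, n = 4; levels are log2 intensity relative to the array's 75th percentile, comparable between groups but not between probes). The largest of its changes was 0.35 ± 0.19 after NM-203 at 5 µg/cm² (± is the standard error of the limma fit, n = 4 per group, here and below unless named otherwise), which did not pass (adjusted p = 0.165), although its 4 arrays lay above all water arrays. Against the 1 µg/cm² dose it was 0.64 ± 0.19 higher (limma adjusted p = 0.00858).

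The hexokinases, which trap glucose as glucose-6-phosphate, were both called higher at 2 µg/cm² of NM-203, and Hk2 alone was called at 5 µg/cm² (higher) and after TPA (lower). For Hk1 the water arrays read 3.09, 3.14, 2.77 and 2.93, and those of NM-203 at 2 µg/cm² read 4.05, 3.28, 3.79 and 3.95. All 4 exposed arrays were higher, by 0.78 ± 0.13 (1.72-fold, limma adjusted p = 6.4e-05). The Min-U-Sil 5 water arrays, scanned on the same day as this dose, read 3.58, 3.52, 3.05 and 3.73, and against them the change was 0.29 and did not pass. A second, much dimmer Hk1 probe changed by -0.42 at this dose and was not called, and the mean of both probes changed by 0.18 and did not pass. At 5 µg/cm² Hk1 read 3.07, 2.99, 2.95 and 3.21, within the range of water apart from 1 array.

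Hk2, the inducible hexokinase, read 0.05, -0.01, -0.34 and -0.23 in water and 0.42, 0.31, 0.46 and 0.30 after NM-203 at 5 µg/cm². The exposed arrays lay above all controls, and the rise was 0.51 ± 0.16 (limma adjusted p = 0.0112). At 2 µg/cm² it read 0.66, 0.31, 0.001 and 0.31, with 1 array within water, and was called higher by 0.45 ± 0.16 (adjusted p = 0.0323). That call was lost in 14 of 23 alternatives, among them the slide block and the Min-U-Sil 5 water arrays. After TPA it read -0.97, -1.31, -0.96 and -0.97, against -0.21, -0.04, -0.31 and 0.07 in DMSO. All TPA arrays were lower, by 1.91-fold (log2 change -0.93 ± 0.16, adjusted p = 8.07e-05), and the NM-203 effect exceeded the TPA effect by 1.44 ± 0.22 (adjusted p = 2.65e-05). Between NM-203 at 5 µg/cm² and TPA, Hk2 was the 1 member called in opposite directions.

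The next steps of upper glycolysis were mostly flat for the major forms. Gpi1, glucose-6-phosphate isomerase (water level 5.24), did not pass in any of the 6 comparisons, its largest change being 0.23 ± 0.10 at 2 µg/cm². Of the phosphofructokinase subunits, which commit sugar to glycolysis, the liver-type Pfkl (0.54) did not pass either, with a largest change of 0.30 ± 0.19 after TPA. The muscle-type Pfkm (2.77) fell by 0.86 ± 0.16 on the log2 scale after NM-203 at 5 µg/cm² (limma adjusted p = 5.33e-05) and by 0.78 ± 0.16 after Min-U-Sil 5 (adjusted p = 0.000331), with no overlap of arrays. The platelet-type Pfkp (1.83) rose by 0.48 ± 0.11 at 2 µg/cm² and by 0.35 ± 0.11 after Min-U-Sil 5, where arrays overlapped. Aldoa, the main aldolase of muscle and most cultured cells (6.77), changed by at most 0.15 at 2 µg/cm² and did not pass.

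Aldoc, the brain-type aldolase, read -1.54, -2.02, -2.87 and -2.64 in water and -3.67, -3.39, -3.55 and -3.33 after NM-203 at 5 µg/cm². The exposed arrays were all lower, although the water arrays spread widely (SD 0.60), and the gene fell 2.32-fold (log2 change -1.22 ± 0.30, limma adjusted p = 0.0017). The first and second water arrays, the highest of the 4, were on slide 2, which held no array of this dose. Within slide 1 and slide 3 the change was -0.80 and -0.52 and did not pass, from 3 and 2 arrays, and with slide as a block it was -0.98 and passed (adjusted p = 0.0162). After Min-U-Sil 5 it read -2.03, -2.18, -2.35 and -2.07, against -0.74, -1.09, -1.05 and -0.68 in its water. These groups did not overlap either, with a fall of 2.40-fold (log2 change -1.26 ± 0.30, adjusted p = 0.00171). The other groups read -0.80, -2.14, -2.46 and -2.02 (NM-203 at 1 µg/cm²), -0.93, -2.09, -1.76 and -1.78 (2 µg/cm²) and -1.79, -2.69, -2.91 and -2.46 (DE). All of these overlapped water. DMSO read -2.75, -2.71, -1.82 and -2.17 and TPA -2.88, -3.00, -2.52 and -2.70, which overlapped as well.

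Lower glycolysis is where ATP and NADH are made. After NM-203 at 5 µg/cm², 6 of its 7 members rose and 1 fell (14% and 19.1% of all gene names), with a median log2 change of 0.67. After Min-U-Sil 5 the counts were 5 and 1 (11.6% and 13.9% of all gene names). At 2 µg/cm² they were 3 and 1 (16.2% and 8.85%), and after TPA 4 and 0 (4.89% and 6.78%). Triose-phosphate isomerase Tpi1 (5.32) rose by 0.41 ± 0.10 after NM-203 at 5 µg/cm² and by 0.34 ± 0.10 after TPA. Gapdh (6.40), the dehydrogenase of this stretch, rose by 0.59 ± 0.12 after NM-203 at 5 µg/cm² and 0.39 ± 0.12 after Min-U-Sil 5. At 2 µg/cm² its 6 probes ran from -1.03 to 0.35 with calls in opposite directions, so its call there (0.35 ± 0.12) depends on the probe, and the mean of the probes was -0.24. After TPA the 6 probes ran from 0.34 to 0.70 and 3 were called higher. The brightest, which stands for the gene, was not called, so the count after TPA depends on the probe. The phosphoglycerate mutase Pgam1 (4.73) rose by 0.91 ± 0.09, 0.75 ± 0.09 and 0.43 ± 0.09 after NM-203 at 5 µg/cm², Min-U-Sil 5 and TPA. Eno1 (5.47), the widely expressed enolase, rose by 0.67 ± 0.12 and 0.48 ± 0.12 after the first and second of these, and had a change of 0.19 ± 0.12 after TPA that did not pass. Its dimmer probe changed by 0.73 after NM-203 at 5 µg/cm² and by 0.53 after TPA, both called, so the lack of a TPA call depends on the probe.

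Pgk1, phosphoglycerate kinase, read 6.09, 6.10, 5.85 and 6.05 in water, 7.08, 6.83, 6.83 and 6.70 at 2 µg/cm² and 7.27, 6.91, 6.92 and 6.62 at 5 µg/cm². Both doses lay entirely above water, by 0.83 ± 0.11 and 0.91 ± 0.11 (limma adjusted p = 4.11e-06 and 1.51e-07). The Min-U-Sil 5 arrays read 7.08, 7.04, 6.98 and 6.87 against 6.55, 6.29, 6.36 and 6.45 in their water. They did not overlap (0.58 ± 0.11), and these second-day controls were themselves above all first-day water arrays. Against them the rise at 2 µg/cm² was 0.45 and still passed.

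Pkm, pyruvate kinase of muscle and proliferating cells, read 5.32, 5.08, 5.12 and 5.03 in water and 6.07, 6.05, 6.10 and 6.00 after NM-203 at 5 µg/cm². The exposed arrays were tightly grouped above water, with a rise of 1.89-fold (log2 change 0.92 ± 0.12, limma adjusted p = 1.45e-07). TPA arrays read 5.72, 5.75, 5.87 and 5.85 against 5.14, 5.19, 5.03 and 5.07 in DMSO. They too lay entirely above their control (0.69 ± 0.12, adjusted p = 7.99e-05). The DE arrays, at 5.46, 5.50, 5.62 and 5.35, were also all above water, but the change of 0.34 ± 0.12 did not pass (adjusted p = 0.182).

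Eno2, the neuronal enolase, read -0.38, -0.25, -0.62 and -0.56 in water and -1.96, -1.71, -2.03 and -1.67 after NM-203 at 5 µg/cm². Every exposed array lay below every control, and this was the deepest fall among the members (2.61-fold, log2 change -1.39 ± 0.17, limma adjusted p = 1.27e-07). At 2 µg/cm² it read -1.18, -1.18, -1.15 and -0.26, so 3 arrays were low and 1 lay within water (change -0.49 ± 0.17, adjusted p = 0.0388). The remaining NM-203 dose read -0.67, -0.62, -0.27 and -0.66 and DE -0.68, -0.60, 0.06 and -0.48, both overlapping water. After Min-U-Sil 5 it read -1.60, -1.36, -1.77 and -1.45 against -0.33, -0.89, -0.67 and -0.72, without overlap (-0.89 ± 0.17, adjusted p = 0.000182). TPA read -0.91, -0.60, -0.95 and -0.98 against -0.56, -0.52, -0.58 and -0.48 in DMSO, all lower, but the change of -0.32 ± 0.17 did not pass.

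Members of the lactate and pyruvate branch split. Ldha (6.25), the lactate dehydrogenase subunit of tissues that make lactate, rose by 0.60 ± 0.11 after NM-203 at 5 µg/cm² (limma adjusted p = 2.74e-05) and had a change of 0.27 after Min-U-Sil 5 that did not pass. Its other probe was called there (0.54) and after TPA (0.58). Ldhb, the heart-type subunit, read 4.32, 4.24, 4.01 and 4.04 in water and 3.21, 3.05, 3.02 and 3.32 after NM-203 at 5 µg/cm². All exposed arrays were lower, and the gene fell 2.00-fold (log2 change -1.0 ± 0.15, adjusted p = 2.3e-06). Min-U-Sil 5 read 3.30, 3.63, 3.50 and 3.31 against 4.46, 4.09, 3.98 and 4.21, without overlap (-0.75 ± 0.15, adjusted p = 0.000234). At 2 µg/cm² Ldhb read 4.14, 3.91, 3.99 and 4.88, and at 1 µg/cm² 4.19, 4.15, 4.12 and 4.32. DE gave 3.87, 4.10, 4.16 and 4.16, and TPA 4.08, 4.14, 3.71 and 3.84 against 4.12, 4.24, 4.12 and 4.27 in DMSO. These groups overlapped their controls.

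Slc16a1, the monocarboxylate transporter MCT1, read 2.23, 2.11, 1.94 and 2.36 in water and 3.00, 3.25, 3.05 and 2.73 after NM-203 at 5 µg/cm². The exposed arrays lay above water, by 0.85 ± 0.15 (limma adjusted p = 2.15e-05), and those of Min-U-Sil 5 above theirs by 0.72 ± 0.15 (adjusted p = 0.000296). TPA arrays read 1.91, 1.40, 1.97 and 1.89 against 2.14, 2.19, 1.91 and 2.25 in DMSO. This change (-0.33) did not pass, but its difference from the NM-203 effect, 1.18 ± 0.21, did (adjusted p = 0.000136). Slc16a3, the lactate exporter MCT4 (-3.11), passed in none of the 6 comparisons (largest change -0.16, at 5 µg/cm²). Pdk1 (1.02), which encodes a pyruvate dehydrogenase kinase, is a classic HIF target. It fell by 0.74 ± 0.12 after NM-203 at 5 µg/cm² and by 0.69 ± 0.12 after Min-U-Sil 5 (limma adjusted p = 8.46e-06 and 4.19e-05). Of its 4 probes 2 were called in each, and they ran from -0.74 to 0.17 and from -0.69 to 0.13.

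The bifunctional enzymes of the PFKFB family set the level of fructose-2,6-bisphosphate, the activator of phosphofructokinase. Pfkfb3, its strongly kinase-active form, read -2.62, -2.73, -2.65 and -2.77 in water, -2.56, -2.45, -2.31 and -2.59 at 1 µg/cm² and -2.21, -1.80, -2.13 and -2.25 at 2 µg/cm². At 5 µg/cm² it read -1.33, -1.17, -1.45 and -1.53. All 3 doses lay entirely above water, with changes of 0.22 ± 0.16 (not called), 0.60 ± 0.16 (limma adjusted p = 0.00748) and 1.32 ± 0.16 (2.50-fold, adjusted p = 1.11e-07). DE read -2.58, -1.95, -2.04 and -2.26, all above water, but the change of 0.48 ± 0.16 did not pass (adjusted p = 0.189). Min-U-Sil 5 read -1.58, -1.21, -1.42 and -1.56 against -2.68, -2.68, -2.42 and -2.77, a rise of 2.28-fold without overlap (1.19 ± 0.16, adjusted p = 1.39e-06). TPA read -1.84, -2.54, -2.43 and -1.73 against -3.05, -3.11, -3.17 and -2.50 in DMSO, a rise of 0.82 ± 0.16 (adjusted p = 0.000665) in which 1 DMSO array reached the TPA range. With a slide or a scan day block the change at 2 µg/cm² was 0.63 or 0.65 and did not pass. Pfkfb4 (-0.71), the related isoform, rose by 0.49 ± 0.11 at 2 µg/cm² but fell by 0.32 ± 0.11 and 0.30 ± 0.11 after NM-203 at 5 µg/cm² and Min-U-Sil 5 (limma adjusted p = 0.0186 and 0.0346). These calls were lost in 7 and 13 of 23 alternatives. Its call at 2 µg/cm² turned to -0.06 against the Min-U-Sil 5 water arrays.

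**Figure D2:**
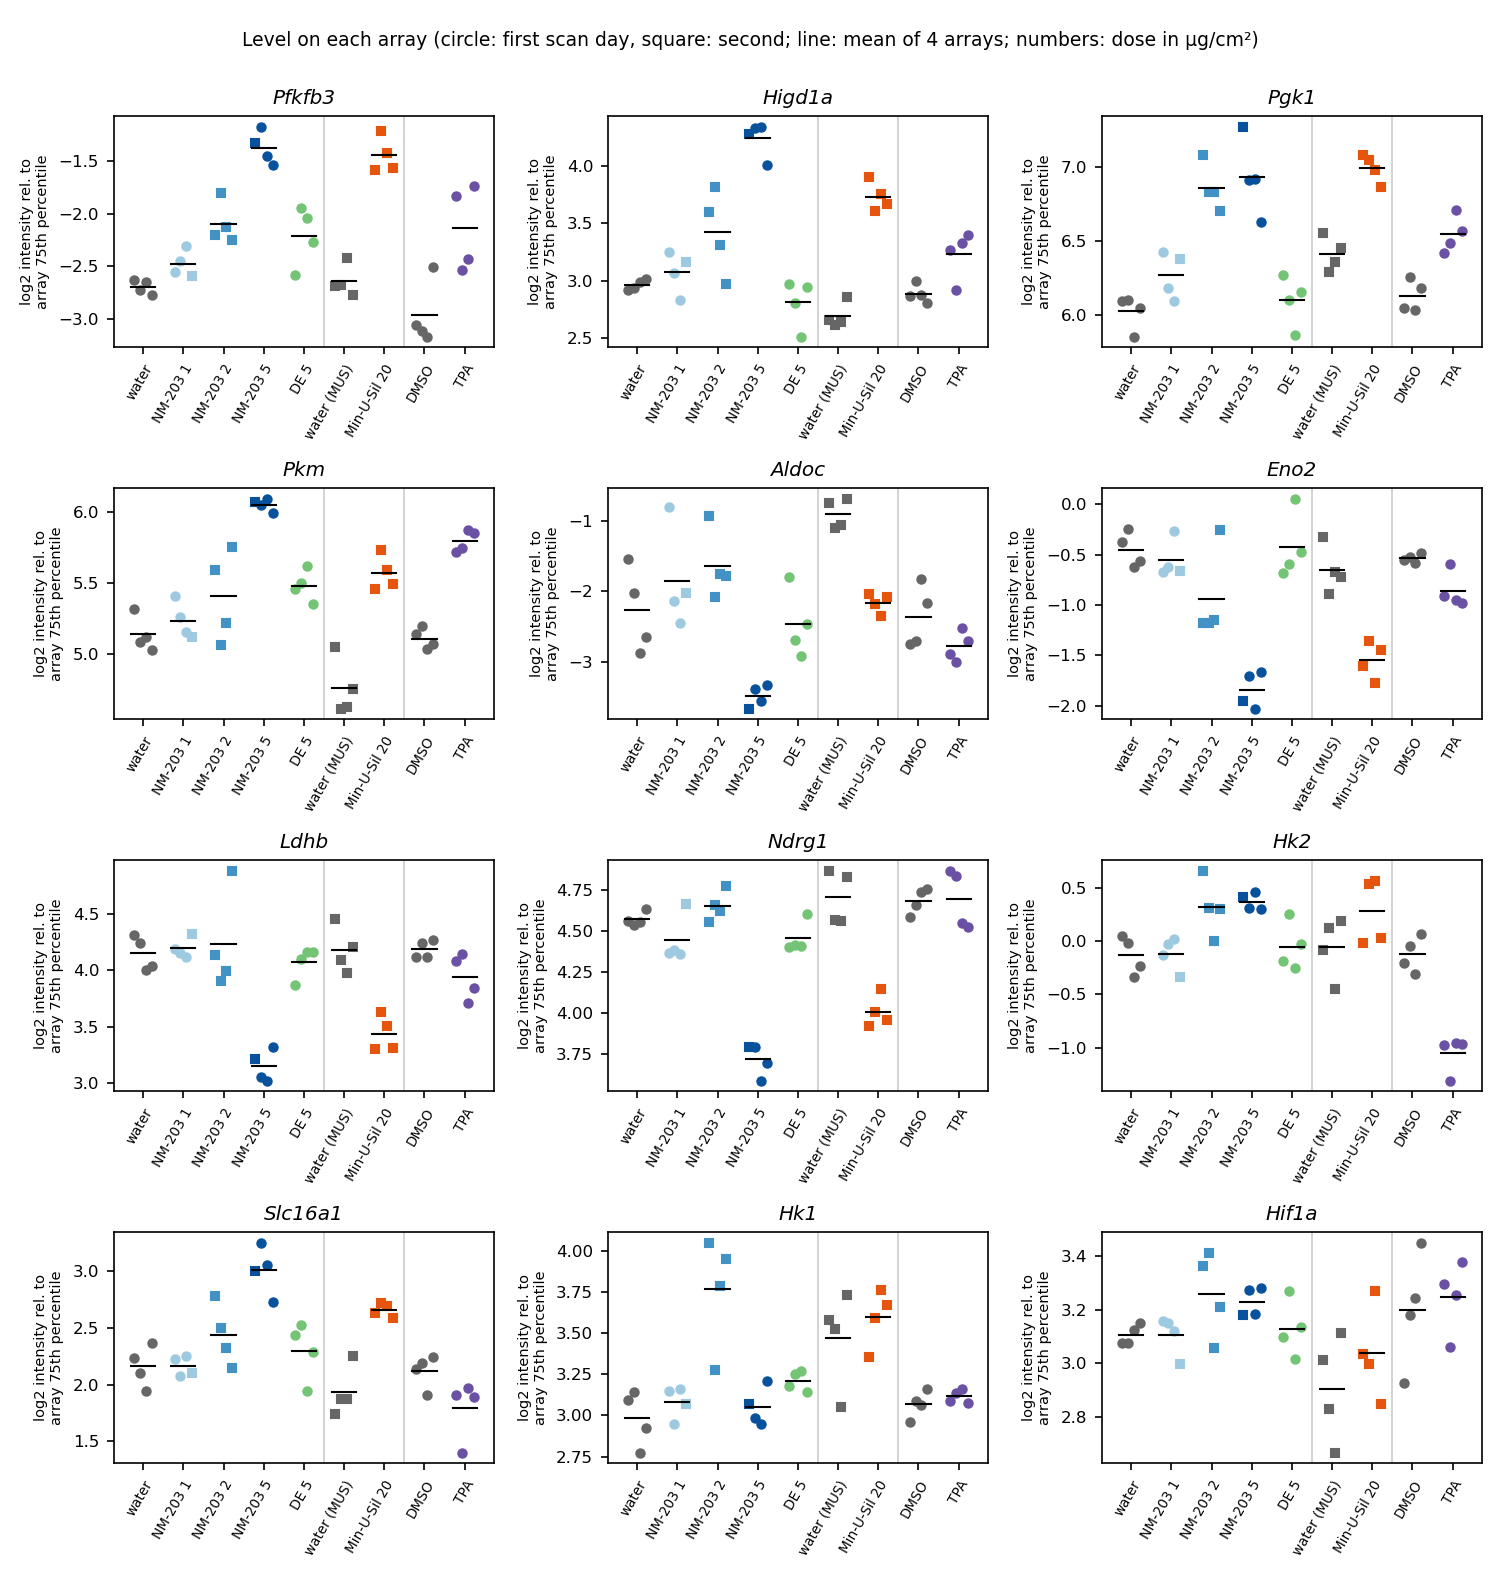
Level of 12 genes on each array (y axis, log2 intensity relative to the array's 75th percentile) in the 9 groups (x axis; grey for controls, MUS for Min-U-Sil 5, thin lines between the sets with separate controls); circles and squares mark the first and second scan day, and bars the mean of 4 arrays. Pfkfb3, Higd1a and Pkm lie above water on each array of NM-203 at 5 µg/cm², Aldoc, Eno2, Ldhb and Ndrg1 below it, and Hif1a spans 2.67 to 3.45 over all groups.

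Of the HIF system, Hif1a and Egln3 RNA passed in none of the 6 comparisons, and Egln1 in 2. Hif1a, which encodes the oxygen-regulated subunit, read 3.08, 3.08, 3.12 and 3.15 in water and 3.18, 3.27, 3.18 and 3.28 after NM-203 at 5 µg/cm². The exposed arrays were narrowly above water, by 0.12 ± 0.11, which did not pass (limma adjusted p = 0.458). At 2 µg/cm² it read 3.36, 3.41, 3.06 and 3.21, at 1 µg/cm² 3.16, 3.15, 3.12 and 3.00, and after DE 3.10, 3.27, 3.01 and 3.13. Min-U-Sil 5 gave 3.04, 3.00, 3.27 and 2.85 against 3.01, 2.83, 2.67 and 3.11, and TPA 3.30, 3.06, 3.25 and 3.38 against 2.93, 3.18, 3.24 and 3.45. All of these overlapped their controls, and the largest change was 0.15, at 2 µg/cm². Egln1 (2.12), the main HIF prolyl hydroxylase, fell by 0.46 ± 0.09 after TPA (adjusted p = 0.000343) and by 0.41 ± 0.09 after DE (adjusted p = 0.0136). Egln3 (-2.25), a hydroxylase that HIF itself induces, passed in none of the 6 comparisons, with a largest change of -0.30 at 5 µg/cm².

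Of the 8 other hypoxia targets, 1 rose, 2 fell and 5 did not pass after NM-203 at 5 µg/cm², close to the 33.1% of all gene names that passed, with a median log2 change of -0.10. Higd1a, a small mitochondrial protein induced by hypoxia, rose most. It read 2.92, 2.94, 2.98 and 3.02 in water, 3.60, 3.82, 3.31 and 2.97 at 2 µg/cm² and 4.28, 4.34, 4.35 and 4.01 at 5 µg/cm². The highest dose lay entirely above water (2.42-fold, log2 change 1.28 ± 0.14, limma adjusted p = 8.38e-09), and at 2 µg/cm² 1 array stayed within it (0.46 ± 0.14, adjusted p = 0.0135). The lowest dose read 3.25, 3.06, 2.83 and 3.16 and DE 2.97, 2.81, 2.51 and 2.94, both overlapping water. Min-U-Sil 5 read 3.90, 3.60, 3.76 and 3.67 against 2.65, 2.61, 2.64 and 2.86, a rise of 2.06-fold without overlap (adjusted p = 7.02e-07). TPA read 3.27, 2.92, 3.33 and 3.40 against 2.86, 3.00, 2.88 and 2.80 in DMSO, with a change of 0.34 that did not pass.

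Ndrg1, a stress- and hypoxia-induced gene linked to growth arrest, read 4.56, 4.54, 4.56 and 4.64 in water and 3.80, 3.80, 3.59 and 3.70 after NM-203 at 5 µg/cm². Its exposed arrays were far below water, by 0.85 ± 0.09 on the log2 scale (limma adjusted p = 1.17e-08), and it fell by 0.70 ± 0.09 after Min-U-Sil 5, while the TPA change was 0.01. Ankrd37 (-0.19), a HIF target of little-known function, fell in 5 comparisons: by 0.76 ± 0.09 and 0.80 ± 0.09 after NM-203 at 5 µg/cm² and Min-U-Sil 5 (adjusted p = 6.27e-08 and 6.46e-08), by 0.40 ± 0.09 at 2 µg/cm², by 0.38 ± 0.09 after DE and by 0.36 ± 0.09 after TPA. At 2 µg/cm² Ankrd37 averaged -0.60, against -0.41 in the second-day Min-U-Sil 5 water arrays. Bnip3 (2.98), a mitophagy receptor, rose by 0.40 ± 0.10 at 2 µg/cm² and fell by 0.28 ± 0.10 after Min-U-Sil 5. Its mean at 2 µg/cm² was 3.38, close to the 3.33 of those second-day water arrays. The Bnip3 call after Min-U-Sil 5 was lost in 10 of 23 alternatives. The collagen prolyl hydroxylase subunit P4ha1 (0.55) fell by 0.56 ± 0.13 at 2 µg/cm², but was 0.33 higher, not called, against the Min-U-Sil 5 water arrays, and its partner isoform P4ha2 (1.33) passed in none of the 6, at most 0.13 from its control. Vegfa (1.19), the angiogenic growth factor, passed in none of the 6 (largest change -0.29, at 1 µg/cm²), although its 4 probes ran from -1.41 to 0.35 at 2 µg/cm² with calls in opposite directions. Adm, the peptide hormone adrenomedullin, was dim: 0 of 4 arrays were well above background at NM-203 1 and 5 µg/cm² and in DMSO, so no fold is given.

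The dose comparison of NM-203 addressed how these genes follow exposure. Against 1 µg/cm², 5 µg/cm² changed 22 of the 34 genes, 14 higher and 8 lower, where 28.1% of all gene names passed. Higd1a was 1.17 ± 0.14 higher, Pfkfb3 1.103 ± 0.16 higher and Aldoc 1.63 ± 0.30 lower (limma adjusted p = 6.92e-08, 3.22e-06 and 7.16e-05). Against DE at the same 5 µg/cm², 20 genes differed, 12 higher and 8 lower (29.2% of all). Here Higd1a was 1.43 ± 0.14 higher, Eno2 1.41 ± 0.17 lower and Egln1 0.45 ± 0.09 higher (adjusted p = 1.7e-09, 1.3e-07 and 0.000136). Centred on the median of all genes, this split was 10 to 4.

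Min-U-Sil 5 and NM-203 at 5 µg/cm² have separate controls, and their effects were compared directly. The difference of effects passed for 0 of 34 genes (limma), where 0.200% of all gene names passed and 2477 did at an unadjusted p under 0.05. Its widest intervals do not exclude sizeable differences: for Aldoc the difference was 0.05 with a 95% interval from -0.82 to 0.92, and for Eno2 -0.49, from -0.99 to 0.01. For Pfkfb3 it was 0.13, from -0.34 to 0.60. The changes had the same sign for 33 of 34 genes, with Pearson's r = 0.97 across genes, which are not independent replicates. Of the calls, 16 were shared in direction, 84.2% of those after NM-203 and 88.9% of those after Min-U-Sil 5. Signs, r and shared calls were not worked out over all gene names, so they do not set these genes apart from the rest.

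The effect of NM-203 at 5 µg/cm² differed from that of TPA for 14 genes, 8 with a more positive NM-203 effect and 6 with a more negative one (14.8% of all gene names passed). With the percentile over probes above background on all arrays the split was 5 to 7. Beside Hk2 and Slc16a1, the largest differences were those of Eno2 (-1.06 ± 0.24, limma adjusted p = 0.00253), Higd1a (0.93 ± 0.19, adjusted p = 0.000946), Ndrg1 (-0.86 ± 0.13, adjusted p = 2.62e-05) and Ldhb (-0.76 ± 0.21, adjusted p = 0.0116). The differences for Eno1, Pfkm, Pgk1 and Ankrd37 lay near the threshold (adjusted p = 0.0434, 0.0488, 0.0364 and 0.0352) and lost their call in 21, 18, 17 and 16 of 30 alternatives. For Pkm the difference was 0.23 (95% interval -0.11 to 0.56) and for Tpi1 0.07 (-0.23 to 0.37), neither called. Signs were shared by 24 of 34 genes (r = 0.51 across genes), and 6 calls were shared, 31.6% of those after NM-203 and 75% of those after TPA. These values, too, were not worked out over all gene names.

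**Figure D3:**
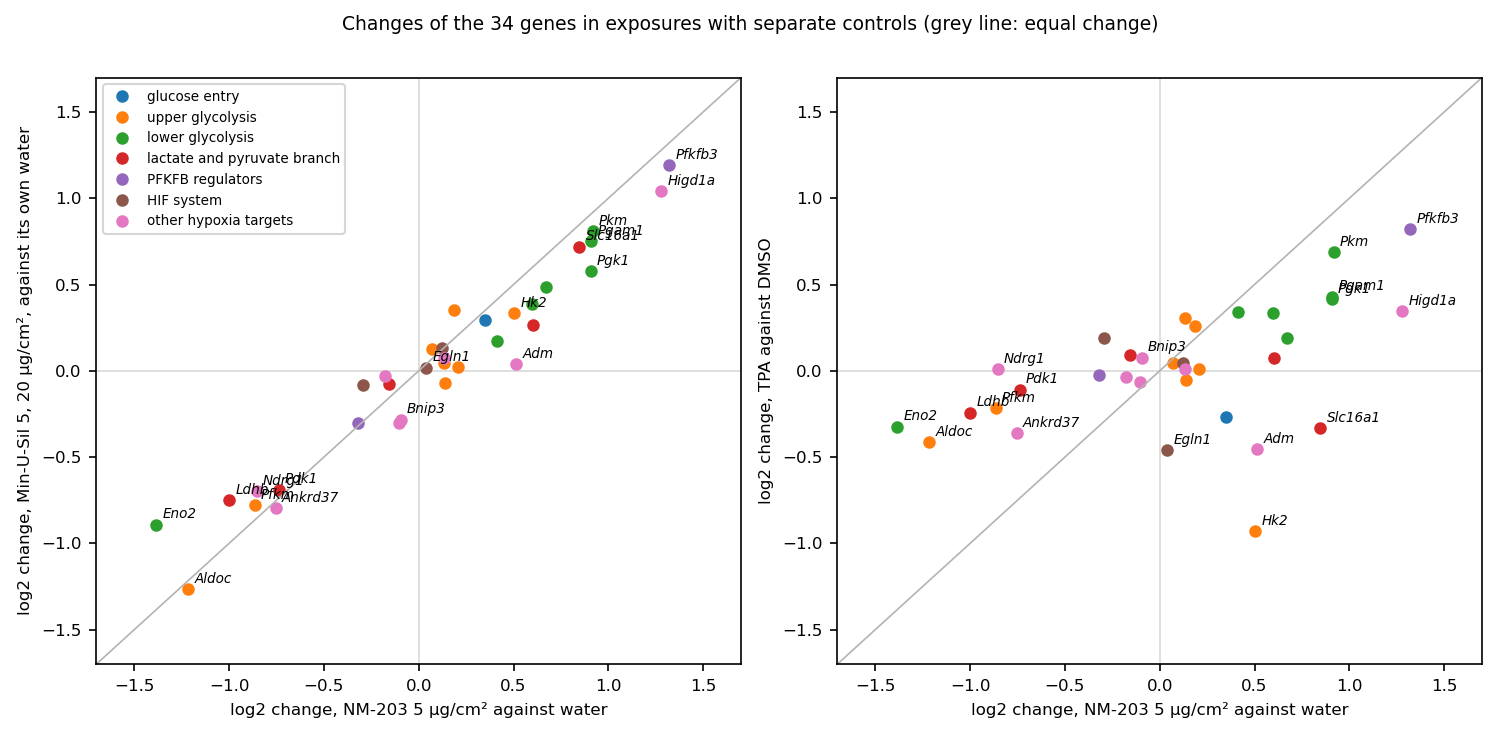
Log2 change of the 34 genes after NM-203 at 5 µg/cm² (x axis) against that after Min-U-Sil 5 (left, y axis) or TPA (right, y axis), each against its own control; 1 point per gene, coloured by role, with a grey line at equal change. Points follow the line on the left (r = 0.97) and scatter on the right (r = 0.51), with Hk2 at 0.51 and -0.93.

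Set side by side on each array, isozymes of 1 step diverged. After NM-203 at 5 µg/cm², the log2 difference of Eno1 and Eno2 widened by 2.06, that of Ldha and Ldhb by 1.60, that of Aldoa and Aldoc by 1.36 (1.19 after Min-U-Sil 5) and that of Pfkl and Pfkm by 1.00, none with overlapping arrays. Min-U-Sil 5 widened the enolase, lactate dehydrogenase and phosphofructokinase differences by 1.38, 1.01 and 0.82, again without overlap. TPA widened Eno1 against Eno2 by 0.52, Pfkl against Pfkm by 0.52 and Hk1 against Hk2 by 0.98, whereas Hk1 against Hk2 narrowed by 0.43 after NM-203 at 5 µg/cm². These describe unequal change of the members, and the levels of 2 probes are not comparable.

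**Figure D4:**
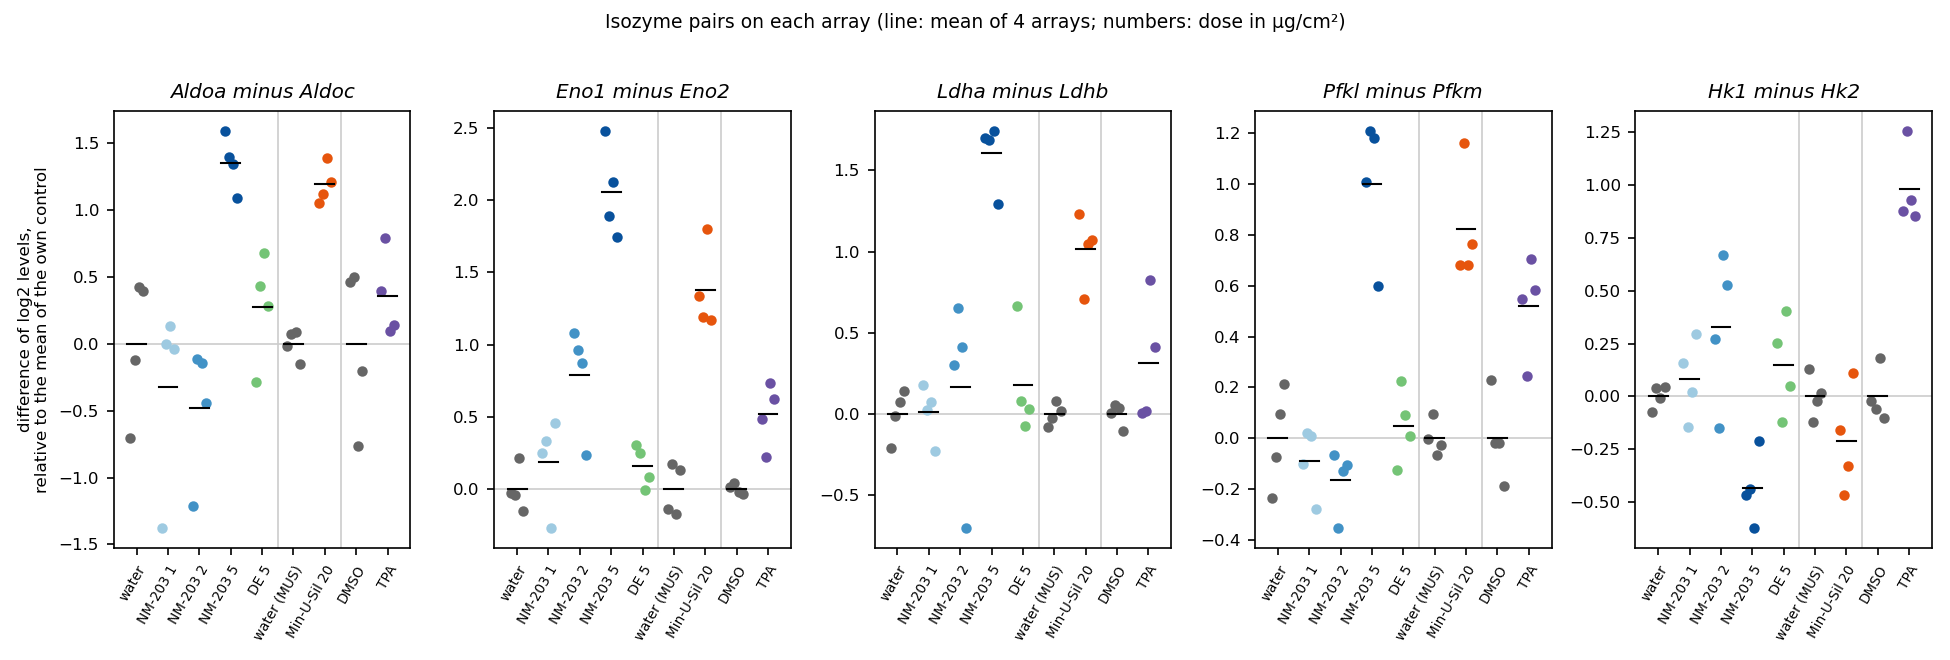
Difference of log2 levels within 5 isozyme pairs on each array (y axis, relative to the mean of the own control) in the 9 groups (x axis; grey for controls); bars are the mean of 4 arrays. The mean difference of Eno1 and Eno2 reaches 2.06 after NM-203 at 5 µg/cm², and that of Hk1 and Hk2 is 0.98 after TPA.

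Slides and scan days bear on these counts. Adding slide as a block gave 19 calls after NM-203 at 5 µg/cm² and 18 after Min-U-Sil 5 (10589 and 8743 of the 32492 gene names). It gave 8 after TPA and 2 after DE (3155 and 461 gene names). With scan day as a block NM-203 at 5 µg/cm² again gave 19 (10446 gene names). Within slide 4, Min-U-Sil 5 gave 12 calls (5999 of all gene names), from 5 arrays. In the next comparisons at least 1 group held 1 array, so the members' median log2 change is given. For NM-203 at 5 µg/cm² it was 0.12 and 0.20 within slides 1 and 3 (all gene names -0.07 and -0.01). For Min-U-Sil 5 within slide 5 it was -0.02 (-0.01). For TPA within slide 1 it was 0.09 (-0.075), and for DE 0.13, -0.01 and 0.10 within slides 1, 2 and 3 (0.01, -0.02 and -0.09). At 2 µg/cm² the slide block left 4 calls (Hk1, Pgk1, Pfkp and Pfkfb4, all higher), where 1496 of all gene names were higher and 831 lower. The scan day block left 3, all higher (1058 and 658 of all gene names). The second-day Min-U-Sil 5 water arrays left 11, all higher, where 2500 of all gene names were higher and 2560 lower. Within slide 5 against those arrays there were 0 (321 of all gene names). Scan day and the 2 µg/cm² dose cannot be told apart against the first-day water arrays. Beside Hk2, the call of Eno2 at 2 µg/cm² was lost in 14 of 23 alternatives. Of the DE calls, Ankrd37 was lost without any 1 of the water arrays or DE replicate 3 or 4 (adjusted p up to 0.147), and Egln1 without water replicate 3 or 4 or DE replicate 3 (up to 0.105).

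Lists of neighbouring pathways, read by the same fit, gave the surroundings, and their counts after NM-203 at 5 µg/cm² stand beside 14% of all gene names higher and 19.1% lower. Values of these lists at 2 µg/cm² are against the first-day water arrays, where dose and scan day cannot be told apart. In the pentose phosphate pathway, the branch that makes NADPH and ribose, 5 of 10 genes rose and 1 fell, and after Min-U-Sil 5 (11.6% of all higher, 13.9% lower) 5 rose and 2 fell. Prps1, which makes the nucleotide precursor PRPP, rose by 1.06 ± 0.12 and 1.04 ± 0.12 in these groups, transaldolase Taldo1 by 0.95 ± 0.10 and 0.97 ± 0.10, 6-phosphogluconate dehydrogenase Pgd by 0.65 ± 0.13 and 0.93 ± 0.13 and the epimerase Rpe by 0.67 ± 0.15 and 0.51 ± 0.15. Of 18 citric acid cycle genes 7 rose and 2 fell after NM-203 at 5 µg/cm². Idh3a, a subunit of isocitrate dehydrogenase, rose by 0.75 ± 0.10, fumarase Fh1 by 0.51 ± 0.12 and citrate synthase Cs by 0.50 ± 0.09, while the succinate dehydrogenase subunit Sdha was called only at 2 µg/cm² among the 6 comparisons (0.52 ± 0.11).

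Where pyruvate enters mitochondria, 2 of 14 genes rose and 4 fell after NM-203 at 5 µg/cm², a total not far from the share over all gene names. The kinase Pdk2 changed by -1.56 ± 0.15, the opposing phosphatase Pdp1 by -1.27 ± 0.10 and pyruvate carboxylase Pcx by -0.88 ± 0.12, and the kinase Pdk4 rose only after TPA among the 6 comparisons (0.72 ± 0.10). Among 25 other glycolytic and isozyme genes 3 rose and 6 fell, again near that share. Gpd1, glycerol-3-phosphate dehydrogenase, fell in 5 comparisons, by 2.13 ± 0.18 on the log2 scale after NM-203 at 5 µg/cm² and 1.93 ± 0.18 after TPA. Pfkfb1, another PFKFB form, rose by 0.94 ± 0.12 and 1.11 ± 0.12 in the same groups. The hexokinase genes Hkdc1 (2.44 ± 0.51) and Hk3 (-1.80 ± 0.46) were called at 2 µg/cm², with the same limit of scan day. At 5 µg/cm² neither passed (1.025 and 0.207). Of 10 glycogen genes 1 rose and 3 fell after NM-203 at 5 µg/cm², also near that share. At 2 µg/cm², again with the limit of scan day, the phosphorylase Pygm changed by -1.64 ± 0.32, the branching enzyme Gbe1 by 0.66 ± 0.12 and glycogenin Gyg by 0.63 ± 0.09. None of them passed at 5 µg/cm² (-0.357, 0.076 and -0.004).

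Oxygen sensors and HIF regulators gave 5 rises and 3 falls in 15 genes after NM-203 at 5 µg/cm², where 14% of all gene names were higher and 19.1% lower. Siah2, a ubiquitin ligase for the HIF hydroxylases, rose by 1.53 ± 0.15 and by 1.098 ± 0.15 after Min-U-Sil 5, whereas Arnt2, a partner of HIF-1α, changed by -1.62 ± 0.18 and -0.81 ± 0.18. Os9 changed by -0.87 ± 0.10 and -0.69 ± 0.10, and Eloc, elongin C of the VHL ubiquitin ligase complex, by 0.72 ± 0.09 and 0.41 ± 0.09. Of 38 further hypoxia targets, 4 rose and 19 fell after NM-203 at 5 µg/cm², with a median log2 change of -0.47 against 0.01 over all gene names, and 4 rose and 19 fell after Min-U-Sil 5 (11.6% of all higher, 13.9% lower) with a median of -0.38 against 0.04. After TPA 2 rose and 8 fell (4.89% and 6.78% of all). Car9, the carbonic anhydrase often read as a marker of hypoxia, changed by -1.33 ± 0.23 after NM-203 at 5 µg/cm², and Kctd11 by -1.28 ± 0.11, while the transferrin receptor Tfrc rose by 1.52 ± 0.17 (limma adjusted p = 2e-05, 8.9e-11 and 2.3e-08). Angpt2, an angiopoietin, was called at 2 µg/cm² (-1.40 ± 0.28) and after Min-U-Sil 5 (-0.95 ± 0.28).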

How the data were processed

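Total RNA of 36 Bhas 42 cultures was labelled with Cy3, and the authors read each array with Agilent Feature Extraction 11.0.1.1, per the submitters' processing notes and the file headers. The deposited spot intensity was background-subtracted, per the file headers, and not normalized between arrays. The authors' deposited value table holds log2 values centred on each probe, with the scaling unstated; its column medians ran from -0.26 to 0.27. For 33 of 36 arrays the best-matching column was their own, and the scanner files' replicate numbers were kept for the 3 Min-U-Sil 5 arrays that matched another replicate.

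The log2 intensity minus each array's 75th percentile was used, outlier spots were left out, spots of a probe were averaged and each gene was represented by its brightest probe. Accessions were named through a RefSeq table of GRCm38.p6, while the array was designed on mm9, so probes have no coordinates here. The 9 group means were fitted with limma 3.58.1 in R 4.3.3 (27 residual degrees of freedom; package data.table, version 1.17.8), and p-values were adjusted by Benjamini-Hochberg over 32492 gene names. The code was tested on simulated data. Figures used Python 3.11.15 and matplotlib 3.10.9.

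The members and pathway lists were chosen with earlier results of these data known. Every member is named. Every array is given for members called in a comparison with a control with an absolute log2 change of at least 1, and for Hif1a; Hk1, Hk2, Slc16a1, Pgk1, Pkm and Ndrg1 were added after their values were seen. The 4 called genes of each pathway list with the largest change over the 6 comparisons with a control are named, apart from 1 that is not reported here. The promoter search was also chosen late: its window was first 300 bases and then also the 250 before the start. Alternatives covered background, scaling, filters, probes, samples fitted, slide, scan day, pairing, array weights, the deposited table and each replicate left out. Whether replicate numbers pair the samples could not be decided from 4 pairs per comparison. At most 2 of 4 same-numbered pairs deviated together (r over 0.1). For TPA and DMSO r ran from 0.011 to 0.236, and for Min-U-Sil 5 and its water from -0.602 to 0.334. Some replicate numbers of Min-U-Sil 5 are themselves in doubt, because those arrays best matched another replicate in the deposited table.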

Additional observations from a re-analysis of the deposited data

Results flagged for a closer look

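In 7 of 108 sets of 4 arrays (12 genes in 9 groups), 1 array lay far from the other 3 by the ratio of its gap to the group's range. Chance gives about 1 in 20 such sets. Hk2 was at -1.31 in TPA replicate 2, below the rest, and Slc16a1 was at 1.40 on the same array. Eno2 was at -0.27 in NM-203 1 µg/cm² replicate 3 and at -0.26 in NM-203 2 µg/cm² replicate 4, both above the rest. Ndrg1 was at 4.66 in NM-203 1 µg/cm² replicate 4 and at 4.61 in DE replicate 4. Higd1a was at 2.86 in replicate 4 of the Min-U-Sil 5 water control.

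For 14 genes the effect of NM-203 at 5 µg/cm² differed from that of TPA by the test of the difference itself (limma, adjusted p under 0.05). The NM-203 effect was the more positive for Hk2 (1.44), Slc16a1 (1.18), Higd1a (0.93), Ldha (0.53), Egln1 (0.50), Pgk1 (0.49), Eno1 (0.48) and Pgam1 (0.48), in log2 units. It was the more negative for Eno2 (-1.06), Ndrg1 (-0.86), Ldhb (-0.76), Pfkm (-0.65), Pdk1 (-0.63) and Ankrd37 (-0.39). Of these, Eno1, Pfkm, Pgk1 and Ankrd37 are the least stable: they lost their call in 21, 18, 17 and 16 of 30 alternatives, and the others in 1 to 5.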

How the results depend on the processing

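Of 2782 values of called members under the alternatives, 2378 kept direction and call, 398 kept direction and lost the call, and 6 reversed, all at NM-203 2 µg/cm²: Gapdh with the mean of its probes (-0.24), Pfkfb4 (-0.063) and P4ha1 (0.33) against the Min-U-Sil 5 water arrays, and Pfkfb4 (-0.14), Bnip3 (-0.077) and P4ha1 (0.30) against them within slide 5, a setting chosen after seeing the data. Counts below are members, then all gene names. Centred on the median of the genes: NM-203 2 µg/cm² 4 and 5333, DE 0 and 27, TPA 3 and 1747, NM-203 effect minus TPA effect 4 and 1983; all gene names were 1 for NM-203 1 µg/cm² and 3 for NM-203 minus Min-U-Sil 5. With only the groups compared: 2 µg/cm² 4 and 2912, DE 0 and 0, TPA 5 members, and all gene names 0 for 1 µg/cm² and 1 for NM-203 minus Min-U-Sil 5. With no filter on dim probes: DE 1 and 209, and 5 for 1 µg/cm². The mean of probes gave 15 for 1 µg/cm². The slide block gave 4 and 2327 at 2 µg/cm² and 100 for 1 µg/cm², and the scan day block 3 and 1716 at 2 µg/cm². Array weights raised all gene names to 367 (1 µg/cm²), 597 (DE), 6294 (TPA) and 756 (NM-203 minus Min-U-Sil 5). Against the Min-U-Sil 5 water arrays 2 µg/cm² gave 5060 gene names, and within slide 5 0 and 321. With normexp and quantile normalization DE gave 1 member and NM-203 minus Min-U-Sil 5 35 gene names. The deposited table gave DE 1 member and 1 µg/cm² 16 gene names. Within slide 1: 5 µg/cm² 10 and 5630, DE 0 and 51, TPA 0 and 459, 5 against 1 µg/cm² 12 and 4628, 5 µg/cm² against DE 6 and 3728, NM-203 minus TPA 0 and 304, and 10 gene names for 1 µg/cm². Within slide 2: DE 0 and 49, and 17 for 1 µg/cm². Within slide 3: 5027 gene names for 5 µg/cm², DE 0 and 58, 5 against 1 µg/cm² 7 and 2775, 5 µg/cm² against DE 13 and 5704, and 0 for 1 µg/cm². Within slide 5: Min-U-Sil 5 9 and 3216, and 5 against 1 µg/cm² 12 and 3372. The within-slide comparisons use fewer arrays, with the spread taken from all arrays, and the fits of only the groups compared hold fewer arrays. The cause of the other differences was not tested. Leaving out each replicate gave, for members and all gene names, 0 to 0 and 2 to 101 (1 µg/cm²), 10 to 14 and 6754 to 8176 (2 µg/cm²), 18 to 19 and 9589 to 10650 (5 µg/cm²), 0 to 2 and 87 to 367 (DE), 16 to 18 and 7055 to 8140 (Min-U-Sil 5), 6 to 9 and 2844 to 3984 (TPA), 20 to 22 and 7967 to 9042 (5 against 1 µg/cm²), 16 to 20 and 8360 to 9444 (5 µg/cm² against DE), 10 to 15 and 4077 to 5224 (NM-203 minus TPA), and 0 to 0 and 17 to 182 (NM-203 minus Min-U-Sil 5). With the replicate block the member counts were 0, 13, 19, 2, 18 and 8 in the order of the first 6, and NM-203 minus TPA gave 12.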
